A study of Homo sapiens with 4 samples.

Results

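Among the human chromosomes 1 to 22 and X, chromosomes 4, 13 and 18 have the fewest protein-coding genes for their length, and the accessible regions on them were described here in the human myeloma line OPM-2. All peaks with these chromosome names were taken from 4 deposited ATAC-seq peak lists, 1 per treatment. They numbered 7777 of 76402 peaks after DMSO, 8100 of 76636 after ATRA, 8185 of 69162 after POM and 11053 of 85434 after ATRA+POM. Merged across lists, they formed 14898 of 122632 regions, with 8703 on chromosome 4, 2809 on chromosome 13 and 3386 on chromosome 18. The chromosomes were chosen because their peak numbers were already known to differ between these lists, so every comparison of the lists below is a description and no test is given.

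Human chromosomes differ in how densely genes are packed, and the gene-poor ones hold long stretches without any gene, often called gene deserts. Such stretches are mostly AT-rich, replicate late and lie against the nuclear lamina, where chromatin is largely closed. In contrast, promoters with many CpG dinucleotides are open in most cell types. Chromosome 4 carries FGFR3 and NSD2 near the end of its short arm, the genes joined to the immunoglobulin heavy chain locus by the t(4;14) translocation of myeloma, and loss of 13q is a frequent event in the same disease.

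OPM-2 is an established t(4;14) line. Its cells were kept for 72 h with the vehicle DMSO, with 1 µM of the vitamin A derivative ATRA (all-trans retinoic acid, which binds nuclear retinoid receptors), with 1 µM pomalidomide (POM, a drug that binds the ubiquitin ligase component cereblon), or with 1 µM of each (ATRA+POM). ATAC-seq marks open DNA by inserting adapters with the Tn5 transposase, and each treatment had 1 library, so no difference between treatments has a replicate check. Judged from the background of each list, the depth of the ATRA, POM and ATRA+POM libraries was 94.1%, 33.6% and 62.7% of that of DMSO, and the lowest summit pileup of any peak was 8 reads in DMSO and ATRA, 4 in POM and 7 in ATRA+POM. Lists were therefore compared by shares and ranks, and the intervals given cover counting error only. A peak lay within 1 kb of 9 of 9 plasma cell marker genes in each list, but also of 5, 3, 3 and 3 of 5 T cell markers, 2 of 5 monocyte markers in each list and 3, 3, 1 and 2 of 5 erythroid markers in DMSO, ATRA, POM and ATRA+POM. Peaks near marker genes thus did not separate these cell types, and HBB, KLF1, LYZ, CD14 and FCN1 had none in DMSO.

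Promoters were the only sequences at hand, so base composition could be set beside the calls with and without POM only there. A promoter here is the stretch from 250 bases before to 50 after a RefSeq transcript start, and 1766 such windows belonged to 1190 of the 1378 protein-coding genes of the 3 chromosomes. A peak covered 910 of them in DMSO, 906 in ATRA, 866 in POM and 900 in ATRA+POM, and 832 were covered in every list. Where the window and the whole merged region over it were called in POM and ATRA+POM and in neither other list, 7 windows remained, 6 of them on chromosome 4, with 2 to 5 CpG in the 250 upstream bases (median 3). The reverse pattern, called in DMSO and ATRA only, was found for 12 windows with 1 to 33 CpG (median 26), 3 of them with fewer than 10. Without the condition on the merged region the numbers were 8 windows (median 3 CpG) and 21 windows (median 25 CpG). The window that this added to the POM pattern, at STK24 on chromosome 13, had 43 CpG and the highest score of the 8 (306). A further 5 windows called in POM alone also ran against this order, with a median of 50 CpG. Medians were low, at 8 and 10 CpG, for 11 windows called in DMSO alone and 26 called in every list but POM. Windows called in ATRA alone (13) had a median of 12, and those called in ATRA+POM alone (13) a median of 5. Windows with a peak in any list had a median of 23 CpG on these chromosomes and 21 on the others. The windows called in DMSO and ATRA only were thus close to called promoters in general. On the other chromosomes that pattern had a median of 16 CpG (306 windows), and the pattern of POM and ATRA+POM only a median of 2 (53 windows).

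Among windows whose whole merged region had the same pattern, which leaves out STK24, the 3 genes with the highest-scoring window of each pattern are printed. The sequences show base composition, 5′ to 3′ on the strand of the gene, from RefSeq (GRCh38), with each CpG in capitals. LIMCH1 (chr4:41537907-41538156, plus strand, an actin-binding protein gene), SLC4A4 (chr4:71338770-71339019, plus strand, a sodium bicarbonate cotransporter gene) and PALLD (chr4:168496802-168497051, plus strand, the gene of the actin scaffold palladin) were called with POM only.
LIMCH1: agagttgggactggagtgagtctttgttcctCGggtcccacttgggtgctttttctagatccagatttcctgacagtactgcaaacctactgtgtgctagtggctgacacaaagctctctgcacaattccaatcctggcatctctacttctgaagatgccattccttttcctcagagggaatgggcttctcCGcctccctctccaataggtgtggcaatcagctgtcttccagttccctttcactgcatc
SLC4A4: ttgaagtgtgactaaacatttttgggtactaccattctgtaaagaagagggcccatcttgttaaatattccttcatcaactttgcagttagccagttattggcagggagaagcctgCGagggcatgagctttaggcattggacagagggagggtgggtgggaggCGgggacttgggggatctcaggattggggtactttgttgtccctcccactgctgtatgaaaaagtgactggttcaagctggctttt
PALLD: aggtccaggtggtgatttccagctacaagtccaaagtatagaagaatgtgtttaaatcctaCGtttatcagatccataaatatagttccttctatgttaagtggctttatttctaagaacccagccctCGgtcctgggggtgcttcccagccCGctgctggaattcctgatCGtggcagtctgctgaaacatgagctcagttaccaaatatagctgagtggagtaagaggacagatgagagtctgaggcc
These windows held 2, 2 and 4 CpG, and G and C made up 50.0%, 48.4% and 46.0% of their bases. LDLRAD4 (chr18:13217432-13217681, plus strand, an inhibitor of TGF-beta signalling), CLUL1 (chr18:596738-596987, plus strand, a clusterin-like gene of the retina) and MCF2L (chr13:112894085-112894334, plus strand, a guanine nucleotide exchange factor gene) were called in DMSO and ATRA only.
LDLRAD4: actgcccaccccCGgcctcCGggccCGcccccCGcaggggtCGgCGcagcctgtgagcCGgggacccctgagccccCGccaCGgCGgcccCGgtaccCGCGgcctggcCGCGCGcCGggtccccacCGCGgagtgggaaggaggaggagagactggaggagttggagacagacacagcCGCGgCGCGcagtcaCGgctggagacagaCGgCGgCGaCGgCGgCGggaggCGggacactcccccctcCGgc
CLUL1: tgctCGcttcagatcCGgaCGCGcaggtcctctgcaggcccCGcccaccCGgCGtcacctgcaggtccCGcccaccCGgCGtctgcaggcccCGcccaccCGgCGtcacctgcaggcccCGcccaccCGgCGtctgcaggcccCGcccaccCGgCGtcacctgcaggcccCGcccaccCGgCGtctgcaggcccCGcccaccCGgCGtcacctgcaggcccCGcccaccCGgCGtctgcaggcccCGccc
MCF2L: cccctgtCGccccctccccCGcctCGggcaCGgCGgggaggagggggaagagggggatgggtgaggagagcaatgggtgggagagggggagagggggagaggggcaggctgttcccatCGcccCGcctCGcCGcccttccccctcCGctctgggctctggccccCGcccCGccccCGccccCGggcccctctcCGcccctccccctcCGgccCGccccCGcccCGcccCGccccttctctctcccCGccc
They held 32, 29 and 21 CpG, with 78.8%, 80.0% and 80.4% G and C. The summit pileup was 15 reads in POM and 28 in ATRA+POM over LIMCH1, 10 and 28 over SLC4A4, and 14 and 17 over PALLD. It was 48 reads in DMSO and 36 in ATRA over LDLRAD4, 32 and 25 over CLUL1, and 35 and 18 over MCF2L. All 6 peaks were modest: their highest deposited scores (10 times the −log10 q-value) ran from 94 at MCF2L to 221 at LDLRAD4, and in ATRA the MCF2L peak scored 13, at the edge of what was called. The CLUL1 window is a short repeat in tandem, where reads are hard to place, so its values are uncertain. The LIMCH1 and SLC4A4 windows lie inside the gene bodies, at inner starts (the genes begin at 41359607 and 71062660), while the PALLD, CLUL1 and MCF2L windows lie at the first start of the gene. CLUL1 has a second window of the same pattern (chr18:616448-616697), which is not printed. It held 1 CpG and 34.0% G and C, with a highest score of 171, so the printed windows do not stand for the whole pattern.

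The label of gene-poor chromosomes held in the annotation. Chromosome 13 had 2.96, chromosome 18 had 3.37 and chromosome 4 had 4.05 protein-coding genes per Mb, the lowest 3 of 23 chromosomes, followed by chromosome 8 with 4.93. The 3 did not behave as a unit, however. Chromosome 4 took 5.61% of the DMSO list, 5.84% of the ATRA list, 6.91% of the POM list and 7.72% of the ATRA+POM list. Its share relative to DMSO was 1.23 in POM and 1.38 in ATRA+POM, the highest of all chromosomes in both lists, and its number of peaks was 54.0% higher in ATRA+POM than in DMSO.

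Chromosome 13 took 2.15%, 2.20%, 2.39% and 2.43% in DMSO, ATRA, POM and ATRA+POM, and chromosome 18 took 2.43%, 2.53%, 2.53% and 2.78%. Relative to DMSO, the share of chromosome 13 was 1.11 in POM and 1.13 in ATRA+POM, which placed it 7 and 8 among 23 chromosomes. The share of chromosome 18 was 1.04 and 1.15, placed 9 and 4. Chromosome X, with 5.45 genes per Mb, stood above both in each list (1.16 and 1.19), so gene density did not by itself order the chromosomes. After ATRA alone the ratios were 1.04, 1.03 and 1.04 for chromosomes 4, 13 and 18, all near 1, and chromosome 18 was the highest of the 23. Together, the 3 chromosomes made up 10.2% of the DMSO list (95% Wilson interval 9.97 to 10.4), 10.6% in ATRA, 11.8% in POM (11.6 to 12.1) and 12.9% in ATRA+POM (12.7 to 13.2). Without chromosome 4 the ratio to DMSO was 1.08 in POM and 1.14 in ATRA+POM, in place of 1.16 and 1.27.

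**Figure D1:**
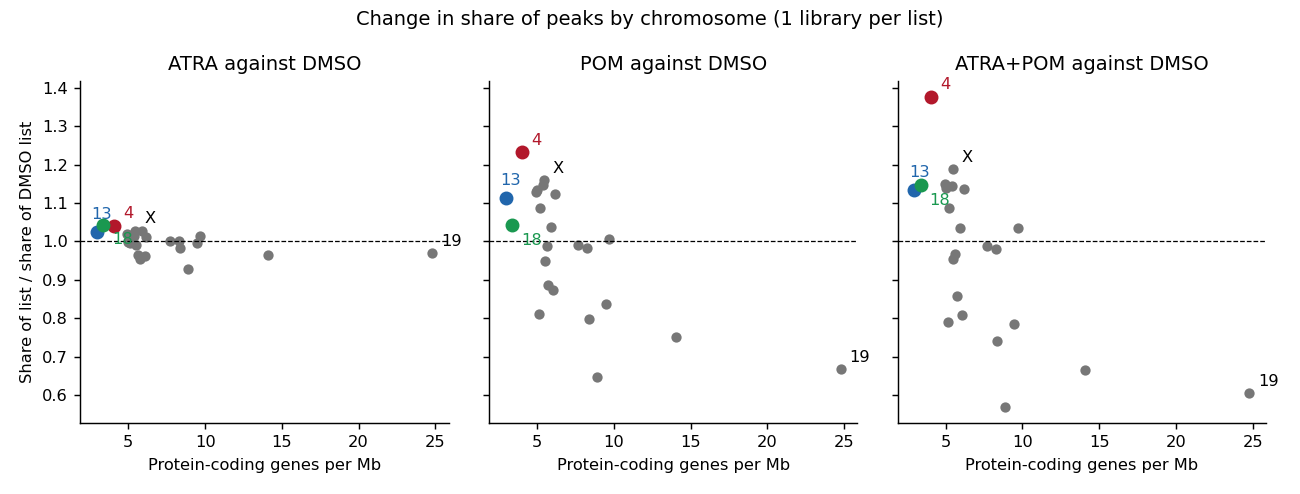
Share of each chromosome in the ATRA, POM and ATRA+POM lists divided by its share in the DMSO list (vertical axis), against protein-coding genes per Mb (horizontal axis); each point is 1 of 23 chromosomes. Chromosome 4 is the highest point after POM (1.23) and ATRA+POM (1.38), chromosomes 13 and 18 lie within the range of other chromosomes, and after ATRA all 3 lie near 1.

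Along the chromosomes, bins with few genes stood highest in the lists with POM relative to those without. Each chromosome was cut into 1 Mb bins, and a bin was called when its share of 1 list was over 1.5 times higher or lower than its share of the other, among bins with at least 10 peaks in both lists together. For POM against DMSO, 106 of 361 bins were higher and 12 lower, where 19.7% and 6.78% of bins of all chromosomes were. For ATRA+POM against DMSO, 147 were higher and 21 lower, against 24.7% and 11.8% of all bins. The share of higher bins in that comparison was 46.6% on chromosome 4, 37.1% on chromosome 13 and 30.7% on chromosome 18, and 22.3% on the other chromosomes.

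ATRA alone called 14 bins higher and 3 lower of 356, against 2.02% and 0.793% of all bins. Adding POM to ATRA (ATRA+POM against ATRA) called 130 bins higher and 15 lower, against 21.8% and 10% of all bins. Adding ATRA to POM (ATRA+POM against POM) called 25 higher and 2 lower, against 3.98% and 1.56%. These counts were larger wherever POM was the agent that differed. That order depended on narrow and weak peaks, however: with peaks of 300 bp or wider only, ATRA+POM against POM gave 80 higher bins and POM against DMSO gave 68, and with a −log10 q-value of at least 5 they gave 57 and 59.

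POM against DMSO and ATRA+POM against ATRA share no library. In both, 88 bins of the 3 chromosomes were higher (14.7% of all bins were) and 8 were lower (4.79% of all bins). Of the 88, 55 lay on chromosome 4, 21 on chromosome 13 and 12 on chromosome 18, and 37 of them overlapped no protein-coding gene. The higher bins had a median of 1 gene, against 3 over all bins of these chromosomes, and the 8 lower bins had a median of 7.5.

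The longest run of higher bins lay on chromosome 4 from 132 to 138 Mb, with 81 peaks in DMSO, 94 in ATRA, 147 in POM and 240 in ATRA+POM. Its genes are PCDH10 and PCDH18, which encode protocadherins, and PABPC4L, a poly(A)-binding protein relative. The next run, from 32 to 37 Mb, held 50, 47, 85 and 138 peaks and 2 genes, ARAP2 and DTHD1. A run from 57 to 61 Mb held 32, 43, 70 and 120 peaks, and runs of 3 bins began at 62, 115 and 177 Mb, beside ADGRL3, NDST4 and NEIL3. These runs were picked for being higher with POM, so their values are a description.

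On chromosome 13 the longest run, from 66 to 70 Mb, contained PCDH9 and KLHL1 and had 29, 39, 53 and 72 peaks in DMSO, ATRA, POM and ATRA+POM. A run from 88 to 91 Mb overlapped no protein-coding gene and had 25, 25, 40 and 62 peaks. On chromosome 18 the longest run lay from 71 to 74 Mb over CBLN2, a secreted synapse organizer, and NETO1, an auxiliary protein of glutamate receptors, with 45, 49, 72 and 117 peaks. A pair of bins from 65 to 67 Mb over the cadherin genes CDH7 and CDH19 had 26, 33, 61 and 93.

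Of the 8 lower bins, 7 lay within 5 Mb of a chromosome end. The first 2 Mb of chromosome 4, which reach FGFR3 and NSD2, held 131 peaks in DMSO, 125 in ATRA, 59 in POM and 81 in ATRA+POM, and the bin at 3 to 4 Mb, with HTT, LRPAP1 and ADRA2C, held 61, 58, 31 and 26. On chromosome 13 the bin at 113 to 114 Mb, which holds the coagulation factor genes F7 and F10, had 53, 52, 31 and 31, and the bin at 111 to 112 Mb over ARHGEF7 had 18, 26, 10 and 12. On chromosome 18 the lower bins were at 78 to 79 Mb (SALL3, a zinc finger gene), at 80 to 81 Mb (PARD6G) and, away from the ends, at 21 to 22 Mb (ROCK1). The ends were then read as such, a choice made after these values were seen. Over the first 5 Mb of chromosome 4 the share relative to DMSO was 0.591 in POM and 0.531 in ATRA+POM, and over its last 5 Mb, where genes are few, 1.29 and 1.39. The last 5 Mb of chromosome 13 had 0.852 and 0.690, and the first and last 5 Mb of chromosome 18 had 0.943 and 0.709 in POM and 0.860 and 0.746 in ATRA+POM. On the other chromosomes the median over 35 ends was 0.718 in POM and 0.649 in ATRA+POM, so lower ends were found there too.

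**Figure D2:**
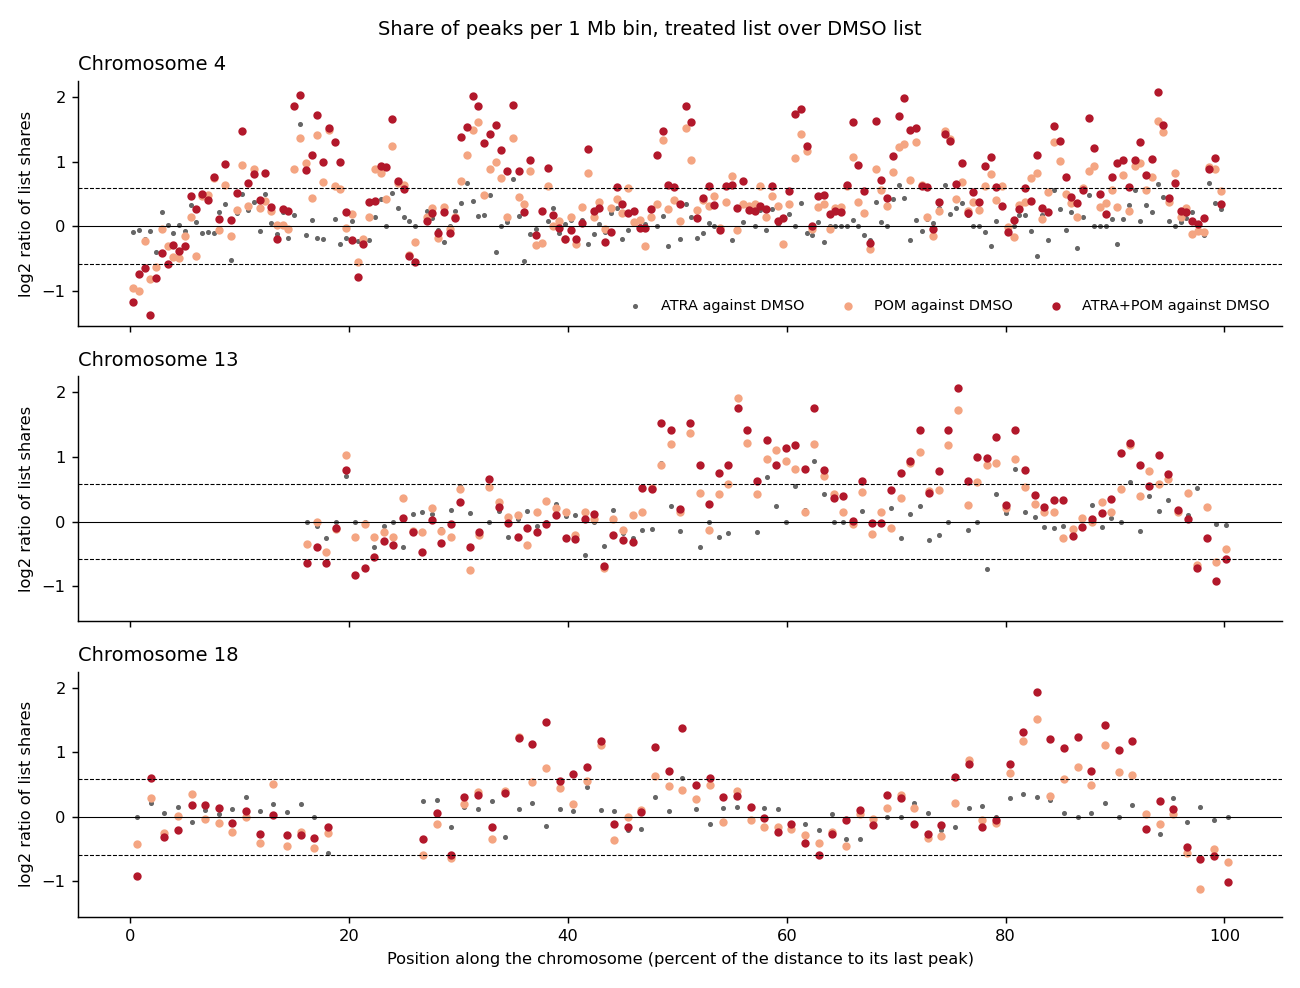
Each point is a 1 Mb bin, placed by its position as a percent of the distance to the last peak of its chromosome, with the log2 ratio of its share of the ATRA, POM or ATRA+POM list to its share of the DMSO list; dashed lines mark 1.5-fold. POM and ATRA+POM lie above 0 over the same stretches, such as 65 to 74 Mb of chromosome 18, and below 0 at the start of chromosome 4 and the end of chromosome 18. Most ATRA points lie between the dashed lines, although ATRA called 14 of 356 bins higher and 3 lower.

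Bins were next grouped by the number of protein-coding genes they overlap, to compare the 3 chromosomes with others at like gene number. In bins without a gene, the share in ATRA+POM relative to DMSO was 2.56 on chromosome 4 (95% counting interval 2.26 to 2.91), 2.15 on chromosome 13 (1.73 to 2.67), 2.08 on chromosome 18 (1.64 to 2.64) and 1.84 on the others (1.75 to 1.94). In bins with 10 or more genes it was 0.877, 0.738 and 0.831 on chromosomes 4, 13 and 18 and 0.736 on the others. Bins without genes were thus above 1 and gene-rich bins below 1 on each of the 3 and on the others together, although the interval of gene-rich bins on chromosome 18 (0.676 to 1.02) reached 1. In bins with 1 to 2 genes the values were 1.85, 1.67, 1.48 and 1.48, and in bins with 3 to 9 genes 1.16, 0.971, 0.977 and 1.01.

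For ATRA+POM against DMSO, chromosome 4 was the highest of all chromosomes in the classes with 0, 1 to 2 and 10 or more genes and ranked 2 with 3 to 9 genes, and for POM against DMSO it ranked 1, 1, 4 and 6 from the class without genes upward. In ATRA+POM chromosomes 13 and 18 ranked 5 and 6 of 22 in bins without a gene, and 14 and 13 of 23 in bins with 3 to 9 genes. For POM against DMSO the order of classes was the same on each of the 3, from 1.99, 1.86 and 1.51 without genes down to 0.891, 0.831 and 0.878 with 10 or more. After ATRA the bins without genes gave 1.17, 1.13 and 1.20 on chromosomes 4, 13 and 18, and 1.05 on the others, and only the interval of chromosome 4 (1.01 to 1.36) lay above 1 among the 3.

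**Figure D3:**
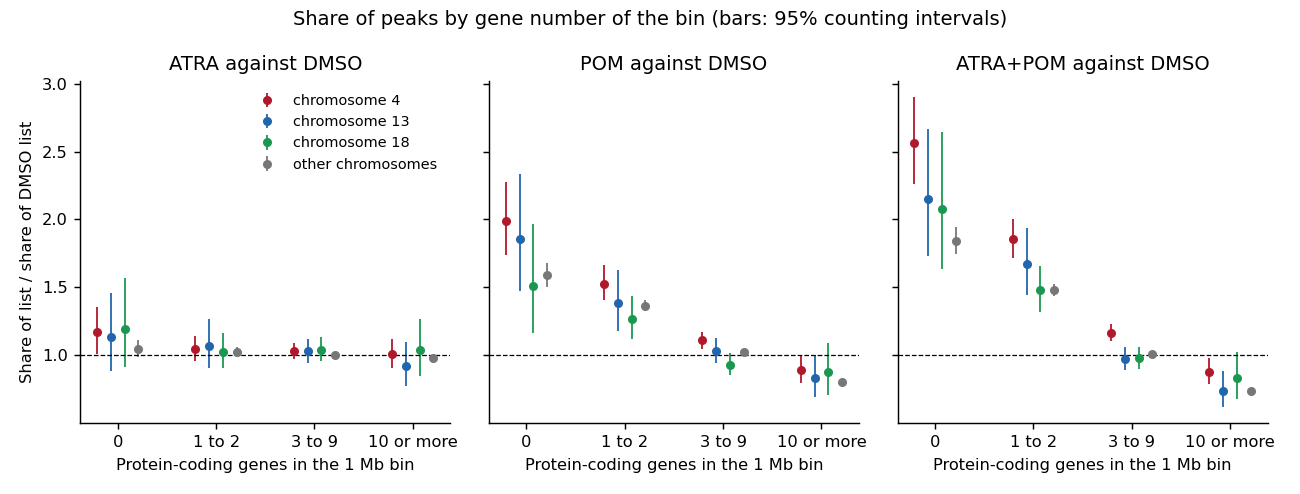
Share of peaks in a treated list divided by the share in DMSO (vertical axis) for 1 Mb bins with 0, 1 to 2, 3 to 9 and 10 or more protein-coding genes (horizontal axis), on chromosomes 4, 13, 18 and the others; bars are 95% intervals for counting error. Bins without genes reach 2.56 on chromosome 4 after ATRA+POM and gene-rich bins lie below 1 after POM and ATRA+POM.

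Peaks on the 3 chromosomes together were slightly narrower than elsewhere in every list, although chromosome 13 had 356 bp in POM and 520 bp in ATRA+POM, close to the other chromosomes. Their median width was 547 bp in DMSO, 554.5 in ATRA, 335 in POM and 496 in ATRA+POM, against 581, 583, 357 and 520 on the other chromosomes. Peaks under 300 bp made up 12.2% of the members in DMSO and 42.5% in POM, the shallowest library, and 38.2% of the other peaks in POM. Peaks were narrower in POM on all chromosomes, so width did not set the 3 apart.

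By −log10 q-value, members ranked below the middle of each list. Their median percentile rank (100 is the strongest peak) was 47.5 in DMSO, 46.2 in ATRA, 45.9 in POM and 44.4 in ATRA+POM, where the other chromosomes had 50.3, 50.5, 50.6 and 50.8. Ranks under the percentile 25 were held by 26.0% of members in DMSO, 26.6% in ATRA, 30.5% in POM and 29.7% in ATRA+POM. Among the 20000 strongest peaks of each list, on the other hand, the members' share was 8.49%, 8.70%, 10.7% and 10.9%. The members thus took a larger part of the strongest peaks in the lists with POM, while more of the members themselves had low ranks there. Chromosome 13 differed from the other pair in ATRA+POM, with a median rank of 51.4 against 42.3 on chromosome 4 and 44.0 on chromosome 18.

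Peaks absent from the other list were counted next (no overlap of 1 bp). In POM, 2865 of 8185 members (35.0%) overlapped no DMSO peak, where 27.2% of all POM peaks did, and 2639 DMSO members overlapped no POM peak (33.9%, with 36.6% over all). The balance turned with stricter peaks: 1257 were gained and 1794 lost with a −log10 q-value of at least 5, and 1008 and 3211 with a width of at least 300 bp. In ATRA+POM, 4800 of 11053 members (43.4%) overlapped no DMSO peak, with 32.7% over all, and 1583 DMSO members were lost (20.4%, with 25.8% over all). After ATRA, 1792 members were gained (22.1%, with 19.5% over all) and 1485 lost (19.1%, with 19.5% over all). Most of these peaks were weak: the gained ATRA+POM members had a median rank of 20.5.

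Restricted to the 20000 strongest peaks of a list, 80 POM members overlapped no DMSO peak (3.75% of 2134, where 2.26% of all strong POM peaks did), 54 of them on chromosome 4, 14 on chromosome 13 and 12 on chromosome 18. For ATRA+POM against DMSO there were 82 (3.77% of 2174, with 2.52% over all), 58 of them on chromosome 4. Strong DMSO members without a peak numbered 27 in POM (1.59% of 1697, with 1.70% over all) and 15 in ATRA+POM (0.884%, with 0.865% over all), near the background in both. ATRA gained 1 strong member (with 0.0450% over all) and lost 2 (with 0.0750% over all).

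Adding POM to ATRA gained 4709 members (42.6%, with 33.3% over all) and lost 1799 (22.2%, with 26.5%), and among strong peaks gained 109 (5.01%, with 3.38% over all) and lost 14 (0.805%, with 0.815%). Adding ATRA to POM gained 4659 members (42.2%, with 35.0% over all) and lost 1639 (20.02%, with 17.7%), and among strong peaks gained 13 (0.598%, with 0.350% over all) and lost 20 (0.937%, with 0.645%). That direction turned to 182 gained and 5 lost with peaks of 300 bp or wider, and to 103 and 50 among the 30000 strongest. The 20 strong POM members missing from ATRA+POM were narrow, with a median width of 193 bp and 95% under 300 bp, as were the 109 on the other chromosomes (197 bp and 89.0%). Strong counts depended on how absence was defined: with no summit within 250 bp in place of no overlap, strong gained members were 186 for POM and 185 for ATRA+POM against DMSO, and strong lost members 117 and 103. With peaks of 300 bp or wider only, 163 strong DMSO members had no peak in POM, in place of 27.

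A graded measure came from the 4574 regions of these chromosomes that all 4 lists held. The read pileup at the summit was compared between libraries as a log2 ratio, minus the median over all 42930 such regions of the genome. For POM against DMSO the median of this centred ratio was 0.42 on chromosome 4 (2562 regions), 0.18 on chromosome 13 (998), 0.09 on chromosome 18 (1014) and −0.03 on the others. For ATRA+POM it was 0.50, 0.22, 0.13 and −0.05, and for ATRA 0.05, 0.02 and 0.02 on chromosomes 4, 13 and 18. On chromosome 4, 74.8% of shared regions lay above the genome median after ATRA+POM, on chromosome 18 58.2%.

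On chromosome 4 the local background differed nearly as much as the summit, and on chromosome 13 much less. The local background against which each peak was called had a centred median log2 ratio of 0.35 on chromosome 4, 0.05 on chromosome 13 and 0.05 on chromosome 18 for POM against DMSO, and of 0.43, 0.05 and 0.11 for ATRA+POM. The deposited fold over local background differed much less, with centred median log2 ratios of 0.07, −0.02 and −0.03 for POM and 0.07, 0.03 and −0.01 for ATRA+POM on chromosomes 4, 13 and 18. Over the 3 chromosomes the median was 0.29 by pileup and 0.03 by deposited fold for POM, and 0.36 and 0.04 for ATRA+POM. The higher pileup on chromosome 4 thus went with a higher local background. That background was recovered under the assumption of a Poisson caller, and whether it includes reads of the peaks themselves is not known. The part of the local background in the pileup difference was not tested. Local background also has a floor, a lowest value in each list (2.36 reads in DMSO, 0.550 in POM and 1.51 in ATRA+POM). The ratio of these lowest values equals the genome median for POM and the chromosome 13 median for ATRA+POM. Differences in regions at the floor are not seen, which limits the contrast between chromosomes 4 and 13.

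Within shared regions, the ratio was lower over promoters with more CpG on chromosome 4 and on the other chromosomes together. On chromosome 4, regions away from any promoter window had a centred median log2 pileup ratio of 0.51 for POM against DMSO (2202 regions), those over promoters with 0 to 9 CpG 0.52 (44 regions), with 10 to 19 CpG 0.07 (70), with 20 to 29 CpG −0.12 (141) and with 30 or more CpG −0.18 (105). On the other chromosomes the same classes had 0.10, −0.15, −0.45, −0.50 and −0.63. Chromosome 4 lay above the others in each class. The order did not hold throughout on chromosomes 13 and 18. For POM, chromosome 13 had −0.36, −0.40, −0.30 and −0.30 from 0 to 9 up to 30 or more CpG (9, 25, 75 and 50 regions). Chromosome 18 had −0.55 with 20 to 29 CpG (57 regions) and −0.43 with 30 or more (37).

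For ATRA+POM against DMSO chromosome 4 gave 0.60, 0.72, 0.16, −0.05 and −0.23 from regions away from promoters to the richest class, and the other chromosomes 0.10, −0.09, −0.40, −0.49 and −0.72. Chromosome 18 had 0.23 away from promoters and −0.45 over promoters with 20 to 29 CpG (57 regions), and chromosome 13 had 0.32 and −0.39 (75 regions). In both classes chromosomes 13 and 18 stood closer to the rest of the genome than to chromosome 4. After ATRA alone the medians of the 3 chromosomes together stayed between −0.02 and 0.08 in all 5 classes.

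**Figure D4:**
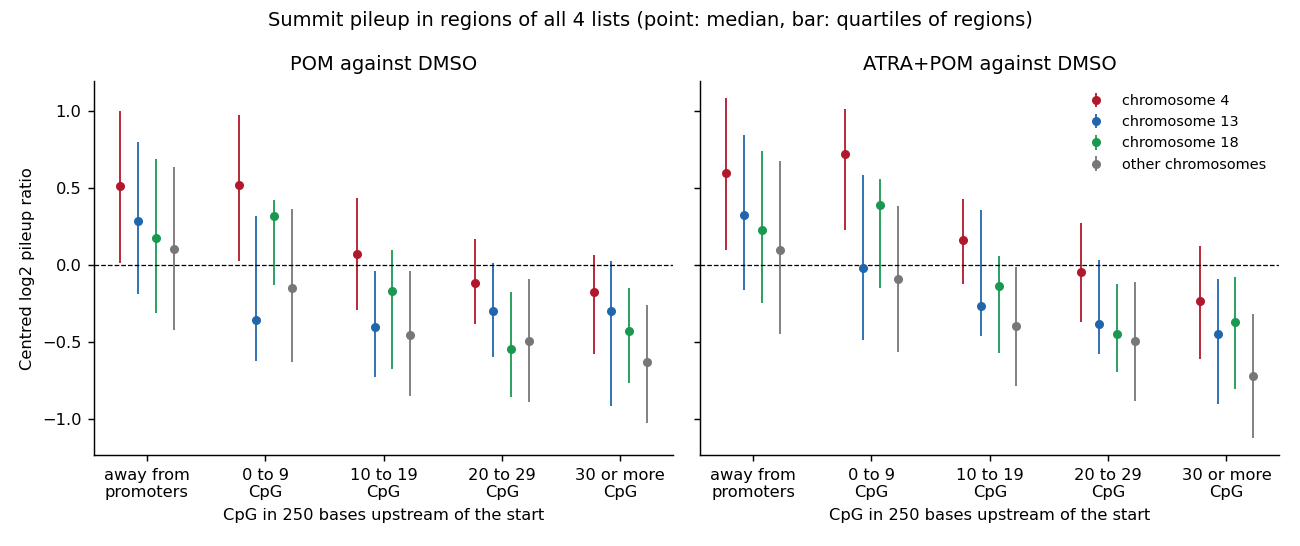
Centred log2 ratio of summit pileup (vertical axis) in regions present in all 4 lists, grouped by the number of CpG in the 250 bases upstream of the transcript start they cover, or lying away from promoters (horizontal axis); points are medians over regions and bars their quartiles. After POM and ATRA+POM, values go down from CpG-poor to CpG-rich promoters on chromosome 4 and on the other chromosomes together. After POM this order does not hold throughout on chromosomes 13 and 18. Chromosome 4 lies above the other chromosomes together in each class.

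Away from promoters the lists differed most in number. Members outside promoter windows numbered 7106 in DMSO, 7427 in ATRA, 7521 in POM and 10374 in ATRA+POM, while those over promoters numbered 671, 673, 664 and 679. Promoter peaks were wide and strong in every list, with a median rank of 92.3 in DMSO and 92.5 in ATRA+POM against 44.1 and 41.7 elsewhere. The higher number in ATRA+POM than in DMSO thus lay in peaks outside promoters. It did on the other chromosomes too, with 60360 peaks outside promoters in DMSO and 66406 in ATRA+POM, and 8265 and 7975 over them. Promoter windows are a fixed set, which limits how far the number of peaks over them can rise.

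Genes that depart from their chromosome were found by giving each region to the protein-coding gene nearest to it, if less than 100 kb away, and setting the number of POM and ATRA+POM peaks at the gene against the number its chromosome as a whole would give. Of 1378 genes, 1266 had a peak and 846 had at least 10 peaks over the 4 lists. A gene was counted as having more or fewer peaks when its share in the 2 lists with POM was over 1.5 times higher or lower than in the 2 without. That held for 112 of 846 genes in the upward direction (7.38% over all genes) and 85 in the downward direction (17.1% over all genes). Chromosome 4 had 86 more and 42 fewer of 461, chromosome 13 had 10 and 19 of 194, and chromosome 18 had 16 and 24 of 191, so the balance toward more was found on chromosome 4 alone among the 3. Of 94 genes over 300 kb, 28 had more and 2 fewer, and on the other chromosomes 144 and 46 of 660 did, so long genes had more there too.

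On chromosome 4 INPP4B, a phosphatase of phosphoinositide signalling (chr4:142023160-142846535), had 12 peaks in DMSO, 13 in ATRA, 31 in POM and 39 in ATRA+POM. IQCM, a calmodulin-binding motif gene, had 8, 5, 14 and 22. Both were picked for more peaks with POM. The 8 regions of INPP4B shared by all lists had a median centred log2 pileup ratio of 1.15 for POM, 1.16 for ATRA+POM and 0.01 for ATRA. UGT2B4, a glucuronosyltransferase of the liver, had 0, 0, 6 and 6, but it belongs to a family of near-identical copies between which reads can be misplaced, so its count is uncertain.

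On chromosome 13 the genes with more peaks were DACH1, a transcriptional cofactor of development (4, 6, 9 and 14 peaks in DMSO, ATRA, POM and ATRA+POM), PCDH9, a neuronal protocadherin (11, 15, 22 and 24), GPC6, a cell surface glypican (16, 18, 22 and 34), and WDFY2, an endosomal adaptor (2, 1, 5 and 5). On chromosome 18 CDH19, a cadherin of glial cells, had 5, 3, 13 and 17, and DTNA, a dystrophin-associated protein gene, had 5, 6, 15 and 15. CCDC102B had 11, 7, 15 and 25 and DOK6, an adaptor of receptor tyrosine kinases, had 7, 8, 11 and 22. The 3 shared regions of DOK6 had a median centred log2 pileup ratio of 1.34 for POM and 1.57 for ATRA+POM.

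In the other direction, FAM53A on chromosome 4 had 24 peaks in DMSO, 25 in ATRA, 6 in POM and 12 in ATRA+POM. ADRA2C, an adrenergic receptor gene, had 16, 13, 4 and 5, LRPAP1, a chaperone of lipoprotein receptors, 9, 6, 3 and 2, and HMX1, a homeobox gene, 17, 13, 7 and 10. All 4 lie within the first 9 Mb of the short arm, at positions from 1574062 (FAM53A) to 8871839 (HMX1). On chromosome 13 MCF2L had 14, 12, 6 and 6, ARHGEF7 5, 5, 1 and 1, GRTP1 5, 6, 1 and 2, and FNDC3A 11, 6, 4 and 4. On chromosome 18 CLUL1 had 5, 5, 1 and 1, PARD6G, a cell polarity gene, 9, 9, 3 and 4, COLEC12, a scavenger receptor, 10, 12, 4 and 6, and ALPK2 10, 13, 5 and 8. MCF2L and CLUL1 are also 2 of the genes with a CpG-rich promoter window printed above, although a second CLUL1 window held 1 CpG.

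**Figure D5:**
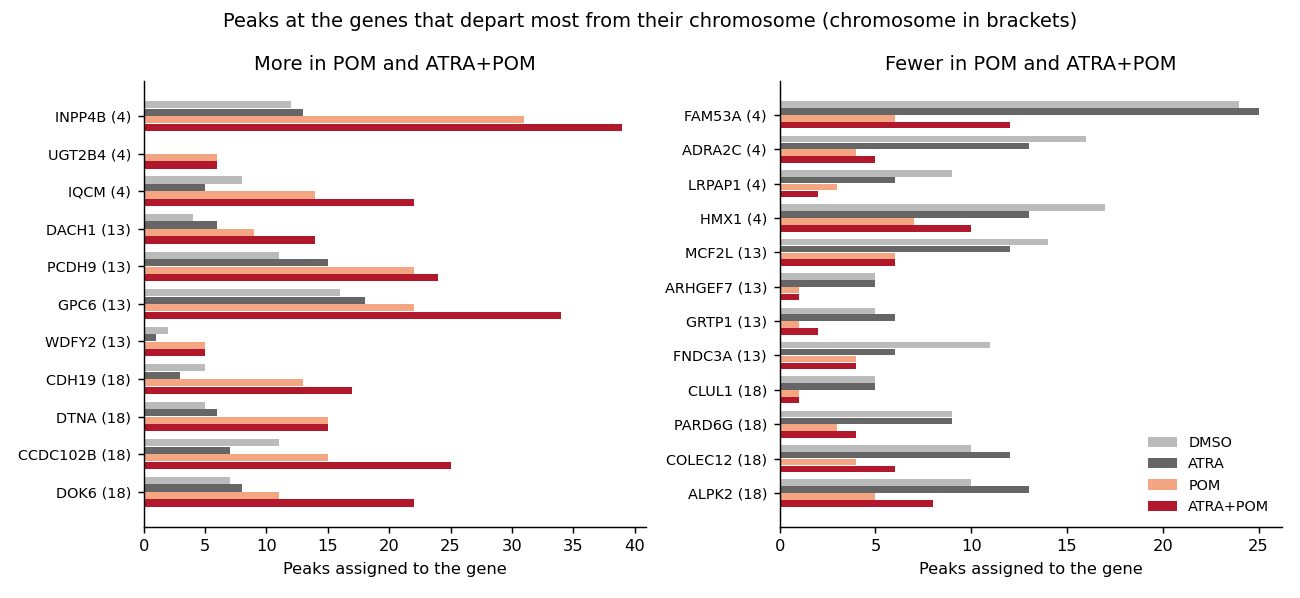
Number of peaks assigned to each of 23 genes that depart most from their chromosome (horizontal bars, with chromosome in brackets), by list; left, more in POM and ATRA+POM, right, fewer. INPP4B goes from 12 in DMSO to 39 in ATRA+POM and FAM53A from 24 to 12.

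Gene lists grouped the genes by function, read beside the median log2 share ratio of −0.15 over all genes tested, of which 7.38% had more and 17.1% fewer peaks past the fold (18.7% and 9.11% on chromosome 4). Genes of cadherins, protocadherins and desmosomal cadherins, which hold cells together, had a median of 0.59, with 9 of 18 tested members past 1.5-fold upward and 0 downward. PCDH10 had 2, 4, 6 and 11 peaks in DMSO, ATRA, POM and ATRA+POM, FAT4 4, 5, 6 and 13, and DSC1 2, 0, 3 and 7. GABA and glutamate receptor genes had 3 of 5 upward, 0 downward and a median of 0.65, with GRIA2 at 6, 3, 10 and 13 and GABRB1 at 7, 8, 12 and 15, while GABRA4 (2, 6, 3 and 2) had a log2 ratio of −0.56. Neural adhesion and guidance genes had 7 of 22 upward, 0 downward and a median of 0.40, with KCNIP4 at 15, 20, 27 and 34. Most of these genes are expressed in neurons, and peaks near them say nothing about transcription in these cells. DACH1, GPC6, DTNA, PCDH9 and CDH19, named above, are members of these lists. Long genes of any function also had more peaks. Of 94 genes over 300 kb on the 3 chromosomes, 28 were upward and 2 downward, and on chromosome 4 19 and 1 of 46. The part of gene length in the values of these lists was not tested.

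Of the UGT2 and ADH enzyme genes of 4q, 2 of 4 tested were upward, both UGT2 genes with near-identical copies (UGT2B4 and UGT2B28), and 12 of the 16 had any peak. The serpin B cluster of 18q had 1 of 4 upward (SERPINB12, with 1, 2, 2 and 5 peaks) and a median of 0.12. Among the CXC chemokine genes, which recruit leukocytes, only CXCL13 had at least 10 peaks (12, 12, 6 and 13), and 4 of 12 had none. CXCL2, PPBP, CXCL9 and CXCL10 were those 4.

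Genes tied to myeloma and the lymphoid lineage are read beside the 7.38% upward and 17.1% downward over all genes. The 4p16.3 genes around the t(4;14) breakpoint had 3 of 4 tested members downward and a median of −0.62. NSD2, the histone methyltransferase gene activated by the translocation, had 13 peaks in DMSO, 11 in ATRA, 8 in POM and 7 in ATRA+POM, and FGFR3, a growth factor receptor gene, had 4, 4, 1 and 4. LETM1, a mitochondrial inner membrane gene, had 5, 6, 3 and 4. Their shared regions also lay below the genome. The centred log2 pileup ratio for POM and ATRA+POM was −0.91 and −1.30 at NSD2 (4 regions) and −0.73 and −1.17 at FGFR3 (1 region). It was −1.003 and −1.84 at TACC3 (3 regions), where chromosome 4 as a whole had 0.42 and 0.50. Lower values were not particular to these genes, however. The first 5 Mb of chromosome 4 had a share relative to DMSO of 0.591 in POM and 0.531 in ATRA+POM. Over 35 ends of other chromosomes the median was 0.718 and 0.649.

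Of the genes of 13q regions often deleted in myeloma, 2 of 8 were downward and 0 upward, with a median of −0.06. TRIM13, a ubiquitin ligase gene, had 5, 3, 1 and 1 peaks and its neighbour KCNRG 4, 4, 2 and 3, while RB1, the retinoblastoma tumour suppressor, had 2, 2, 2 and 3. Among 21 lymphoid genes 1 was upward and 4 were downward, with a median of −0.18, near the values over all genes. BANK1, a B cell scaffold gene, had 7, 7, 11 and 12 peaks, whereas ELF1, an ETS factor gene of blood cells, had 16, 16, 9 and 11 and JCHAIN, the joining chain of IgA and IgM, 5, 5, 3 and 3. BCL2, the apoptosis inhibitor of 18q, had 18, 16, 15 and 18, and CD38, a plasma cell surface enzyme, had 5, 5, 3 and 6, neither past the fold.

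The TGF-beta and apoptosis genes of 18q had 0 of 4 in either direction and a median of −0.18. The 7 shared regions of SMAD7, an inhibitor of the pathway, had a centred log2 pileup ratio of −0.66 for POM and −0.47 for ATRA+POM. It was −0.48 and −0.48 at SMAD2 (7 regions) and −0.86 and −0.85 at SMAD4 (3 regions). PMAIP1 went the other way, with 0.34 and 0.24 (9 regions). Of 13 ubiquitously expressed genes, 0 were upward and 1, the chromatin protein gene HMGB1 (12, 13, 7 and 9 peaks), was downward, with a median of −0.15, the value of all genes.

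Single regions were named where the pattern was complete. On chromosome 4 the strongest region called in POM and ATRA+POM only (chr4:130738043-130739016) had a summit pileup of 64 in POM and 116 in ATRA+POM and no protein-coding gene within 100 kb, and the next (chr4:25970436-25971326, 41.1 kb from SMIM20) had 48 and 109. On chromosome 13 the leading regions (chr13:104048680-104049546 with 43 and 82, chr13:44745004-44745798 with 31 and 71) also had no gene within 100 kb. On chromosome 18 a region inside DCC, the netrin receptor gene (chr18:53225722-53226458), had 44 and 114, and a region 82.8 kb from DSEL had 22 and 55. In 3 of these 6 regions, then, the nearest gene was over 100 kb away. The share of all merged regions that lie this far from a gene is not given, so no contrast is drawn from it.

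The strongest regions called in DMSO and ATRA only lay inside genes or up to 80.5 kb from one. On chromosome 4 they were inside AFAP1, an actin-binding protein gene (chr4:7802084-7802579, pileup 100 in DMSO and 60 in ATRA), and inside MTHFD2L, a mitochondrial folate enzyme gene (66 and 49). On chromosome 13 a region lay 19.2 kb from USPL1 (44 and 37). On chromosome 18 they lay inside CDH2, the N-cadherin gene (chr18:28168519-28169312, 50 and 26), and 80.5 kb from MEX3C (70 and 59). CDH2 as a whole had 7, 6, 10 and 5 peaks in the 4 lists and was not past the fold.

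By pattern over all lists, 1148 of the 14898 merged regions (7.71%) were in POM and ATRA+POM only, against 5.82% on the other chromosomes, and 562 (3.77%) were in DMSO and ATRA only, against 6.66%. Chromosome 4 had 738 of the former and 268 of the latter, chromosome 13 had 198 and 131, and chromosome 18 had 212 and 163. Regions found in ATRA+POM alone were the most frequent of the single-list patterns, with 2933 (19.7%), against 12.05% on the other chromosomes.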

How the data were processed

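ATAC-seq peaks of OPM-2 cells came from 4 deposited lists, 1 per treatment, with coordinates on hg38 per the submitters' processing notes. The aligner and caller were not given in the sources used here. For every peak the authors deposited a score (its −log10 q-value times 10, cut to a whole number), a fold over local background, the −log10 p-value and −log10 q-value at the summit, and another value, the distance from peak start to summit; these meanings were read from the deposited values and column layout. Peaks off chromosomes 1 to 22 and X (2, 3, 0 and 0 in DMSO, ATRA, POM and ATRA+POM) were left out.

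The summit pileup was recovered as the whole read number whose Poisson tail, given the deposited fold, matches the −log10 p-value within 0.01; this assumes a Poisson caller and held for 100% of peaks in each list. Depth was read from the lowest local background divided by the smallest peak width. Overlaps were counted with scripts and checked with bedtools 2.31.1, which gave equal counts in 10 of 10 comparisons. Other steps used Python 3.11.15, pandas 2.3.3 and scipy 1.17.1. Overlap and pileup recovery were also run on simulated data. There 200 of 200 planted strong regions were found, but the spacing of the simulated sites fixed that outcome, so it checks the code only. Bins, merging and gene assignment were not run on simulated data. Genes were the 19974 protein-coding entries of RefSeq GRCh38.p14. Share ratios of genes add 0.5 to each count.

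With 1 library per group no test was possible, so calls are by size only. Named were, per chromosome, the 4 genes furthest above and below the peak number expected from the chromosome, among genes with at least 10 peaks, the 2 highest-scoring regions of each complete pattern, and examples from the gene lists. A gene and a region that this rule picks are not reported here. The members and lists were chosen with earlier results of these data known.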

Additional observations from a re-analysis of the deposited data

How the results depend on the processing

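No paired analysis was possible because each treatment had 1 library, and for the same reason no library could be left out. Of 192 values recomputed under another setting, 84 stayed within their counting interval or within 1.5 times a count, 107 moved further and 1 changed sign. Depth also limits the lists: POM had an estimated 33.6% of the depth of DMSO, its weakest peaks had a pileup of 4, and a region absent from a list is only a region not called there. Except where stated, the cause of a move was not tested. Leaving out chromosome 4 was chosen after seeing the data.

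With all lists cut to the length of the POM list, the members' share in ATRA+POM was 12.2%, its ratio to DMSO 1.20 and the ratio in bins without genes 2.06. Median widths were then 592, 602 and 560 bp in DMSO, ATRA and ATRA+POM, and the median rank in ATRA+POM was 46.6. ATRA+POM gained 2814 members against DMSO, 2775 against ATRA and 2439 against POM, with 11 lower bins against DMSO and 4 higher bins against POM.

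With a −log10 q-value of at least 5, the share was 10.4% in ATRA, 11.1% in POM and 12.2% in ATRA+POM, with ratios of 1.10 in POM and 1.21 in ATRA+POM. Widths in DMSO, ATRA, POM and ATRA+POM were 647, 654, 414 and 560 bp, and median ranks 46.0, 45.2, 47.9 and 46.6, so POM now ranked highest of the 4. There was 1 lower bin for ATRA against DMSO, and 59 bins were higher for POM against DMSO. For ATRA+POM there were 11 lower bins against DMSO, 9 lower against ATRA, and 57 higher and 1 lower against POM. ATRA gained 854 and lost 907 members, POM gained 1257 and lost 1794, and ATRA+POM lost 889 against DMSO, 908 against ATRA and 357 against POM.

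With peaks of 300 bp or more, the share in POM was 11.1% and its ratio 1.10. POM against DMSO had 68 higher and 19 lower bins, and ATRA+POM against POM had 80 and 4. POM gained 1008 members and lost 3211, and ATRA+POM lost 338 against POM. Among strong peaks ATRA gained 3, POM lost 163, and ATRA+POM gained 182 and lost 5 against POM; this setting removes 42.5% of POM members by construction. Without chromosome 4 the ratio to DMSO was 1.08 in POM and 1.14 in ATRA+POM.

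Bins of 2 Mb, of which there are fewer, gave 1 higher and 0 lower for ATRA, 52 and 3 for POM and 69 and 8 for ATRA+POM against DMSO, 58 and 6 for ATRA+POM against ATRA and 6 and 0 against POM. A fold of 2 gave, in the same order, 1 and 0, 45 and 2, 83 and 3, 70 and 4, and 1 and 0. Where an overlap had to cover 50% of both peaks, POM gained 4647 and lost 4239 members, and ATRA+POM lost 3559 against POM.

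Strong members gained and lost, in the order ATRA, POM and ATRA+POM against DMSO, then ATRA+POM against ATRA and against POM, were 0 and 0, 15 and 0, 14 and 0, 19 and 0, and 0 and 7 among the 10000 highest peaks. Among the 30000 highest they were 13 and 9, 214 and 167, 261 and 71, 303 and 63, and 103 and 50. With no summit within 250 bp they were 61 and 60, 186 and 117, 185 and 103, 220 and 111, and 73 and 78. In shared regions the centred median log2 pileup ratio for ATRA was 0.0118 where each library reached a pileup of 30. By deposited fold it was −0.00404 for ATRA, which changed sign, 0.0346 for POM and 0.0431 for ATRA+POM.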
